A study of Mus musculus with 19 samples.

Results

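The chemokine genes measured in the aged and inhibitor-treated CA1 region were 10 genes chosen by name: Ccl2, Ccl3, Ccl4, Ccl5, Ccl6, Ccl9, Ccl12, Cxcl10, Cxcl16 and Cx3cl1. All 10 were found in the count files, which list 48709 genes, and all 10 were among the 19286 genes that passed the low-count filter (5 or more reads in 50% or more of the libraries). Chemokines are small secreted or membrane-bound proteins that steer the movement of immune cells by binding G protein-coupled receptors on their surface. In the brain most of them are made at low levels by microglia, the resident macrophages, by astrocytes, by vessel cells or by immune cells that have entered the tissue. Cx3cl1 is an exception, since neurons make it and microglia carry its receptor, Cx3cr1.

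The libraries came from the CA1 region of the dorsal hippocampus of male C57BL/6J wild-type mice, and each library was taken as a separate mouse. Young mice (3 months, n = 6) and old control mice (16.5 months, n = 6) received control oligonucleotides of scrambled sequence, and old anti-miR-mix mice (16.5 months, n = 7) received inhibitors of miR-148a-3p, of miR-146a-5p and of miR-181a-5p. Every oligonucleotide was packed in lipid nanoparticles and injected into the dorsal hippocampus, so the controls share the injection and the particles, and tissue without injection was not analysed here. The RNA was of whole CA1 tissue, in which a change in the number of cells of a type and a change in RNA per cell cannot be told apart.

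Each library held 26653511 to 38908947 reads assigned to genes, and levels are given as CPM, reads per 1000000 reads of a library. Several chemokine genes had fewer than 20 reads in a library. Markers of CA1 pyramidal neurons were present in every library, with summed levels of 698 to 1003 CPM. A table deposited beside the counts had been adjusted for a number from 1 to 4 given to each library, called the processing group below, whose origin is not described. Old anti-miR-mix, old control and young libraries numbered 1, 2 and 1 in processing group 1, and 2, 2 and 1 in group 2. They numbered 3, 0 and 2 in group 3, and 1, 2 and 2 in group 4. Processing group 3 thus held old anti-miR-mix replicates 3, 4 and 5 and no old control library, so treatment and processing group cannot be fully told apart between the old groups. Old control replicates 5 and 6 were the most alike of all pairs within a group (chi-square per degree of freedom of 2.18 over 12780 genes, against 6.10 for the next pair), which is still above the value of 1 that sampling noise alone gives.

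A microRNA lowers the output of messenger RNAs that carry a complementary site, and each inhibitor used is an antisense strand of its microRNA. The mature sequences (RefSeq, GRCm38.p6) are shown with the seed, bases 2 to 8, in capitals, because a messenger RNA pairs mainly with the seed. Each inhibitor, as designed by the study, follows its microRNA and pairs with bases 2 to 21 of miR-146a-5p, 3 to 21 of miR-148a-3p and 3 to 23 of miR-181a-5p.
mmu-miR-146a-5p: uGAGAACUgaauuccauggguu
inhibitor of miR-146a-5p: acccatggaattcagttctc
mmu-miR-148a-3p: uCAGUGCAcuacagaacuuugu
inhibitor of miR-148a-3p: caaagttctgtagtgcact
mmu-miR-181a-5p: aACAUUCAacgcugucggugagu
inhibitor of miR-181a-5p: actcaccgacagcgttgaatg

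The 3 seeds differ from each other, and the 10 chemokine genes were searched for their complements in the longest annotated 3′UTR of each gene (GENCODE M21). Ccl9 held a match to miR-146a-5p, at positions 1183 to 1189 of a 3′UTR of 2465 bases, and no other match was found in the 10 genes. The match is given in capitals within its surroundings.
Ccl9 match to miR-146a-5p: tctttggaAGTTCTCcct
Over the 15352 tested genes with an annotated 3′UTR, 12.4% held this match (AGTTCTC), 14.9% the match to miR-148a-3p (TGCACTG) and 18.1% the match to miR-181a-5p (TGAATGT). A match is a run of letters and was not tested as a binding site.

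Of the 10 genes, 8 lie on chromosome 11 (GRCm38). Ccl5 (83525778 to 83530518, minus strand), Ccl9 (83572919 to 83578636, minus), Ccl6 (83587882 to 83593087, minus), Ccl3 (83647844 to 83649355, minus) and Ccl4 (83662584 to 83664683, plus) form one cluster. Ccl2 (82035571 to 82037453, plus) and Ccl12 (82101845 to 82103400, plus) form another, and Cxcl16 (70453983 to 70459984, minus) lies apart. Cxcl10 (92346638 to 92348889, minus) is on chromosome 5 and Cx3cl1 (94772009 to 94782427, plus) on chromosome 8. All 10 are protein-coding genes. Exons of Cxcl16 overlap those of Zmynd15 on the opposite strand, and exons of Cxcl10 overlap those of Art3.

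Promoter sequences (RefSeq, GRCm38.p6, the 250 bases before the start of the gene) were given for 6 of the 10 genes. They are shown so that the motifs can be compared between the genes, except that of Cx3cl1, whose window runs into a transcript annotated in GENCODE M21. Capitals mark matches, on either strand, to the NF-kB motif, the interferon-stimulated response element (GAAANNGAAA), the ETS core (AGGAAGT) and the TATA box (TATAAA). These motifs were picked after the sequences had been seen.
Ccl3 (chr11:83649379-83649628, minus strand): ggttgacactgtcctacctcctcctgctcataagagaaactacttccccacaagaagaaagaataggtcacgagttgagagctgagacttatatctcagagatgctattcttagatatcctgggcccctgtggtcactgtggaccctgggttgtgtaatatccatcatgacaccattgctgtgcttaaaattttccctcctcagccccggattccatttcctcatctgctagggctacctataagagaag
Ccl6 (chr11:83593088-83593337, minus strand): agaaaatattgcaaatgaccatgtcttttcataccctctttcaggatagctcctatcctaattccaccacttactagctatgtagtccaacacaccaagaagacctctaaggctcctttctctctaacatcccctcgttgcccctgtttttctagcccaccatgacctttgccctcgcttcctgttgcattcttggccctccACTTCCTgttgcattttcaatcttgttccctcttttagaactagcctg
Ccl9 (chr11:83578637-83578886, minus strand): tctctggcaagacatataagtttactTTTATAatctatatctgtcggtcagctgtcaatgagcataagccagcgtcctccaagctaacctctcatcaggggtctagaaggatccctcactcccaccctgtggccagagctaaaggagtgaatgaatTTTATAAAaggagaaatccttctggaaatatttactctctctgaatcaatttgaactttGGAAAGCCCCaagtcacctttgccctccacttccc
Ccl12 (chr11:82101595-82101844, plus strand): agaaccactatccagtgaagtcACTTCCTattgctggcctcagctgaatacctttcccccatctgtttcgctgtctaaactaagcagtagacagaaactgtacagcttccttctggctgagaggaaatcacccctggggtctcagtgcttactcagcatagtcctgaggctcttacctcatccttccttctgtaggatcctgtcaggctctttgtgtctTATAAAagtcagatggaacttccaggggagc
Cxcl10 (chr5:92348890-92349139, minus strand): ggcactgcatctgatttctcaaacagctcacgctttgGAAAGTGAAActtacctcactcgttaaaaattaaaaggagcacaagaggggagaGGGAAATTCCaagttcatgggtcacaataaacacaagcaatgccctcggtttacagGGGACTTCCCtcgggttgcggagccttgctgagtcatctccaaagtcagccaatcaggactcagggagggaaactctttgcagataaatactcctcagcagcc
The Cxcl10 window held 2 NF-kB matches, starting at -159 and -103 from the start of the gene, and 1 interferon-stimulated response element at -213. The Ccl9 window held 1 NF-kB match at -35 and TATA matches at -224, -94 and -92, the last 2 of which overlap. The Ccl6 window held 1 ETS core at -48, and the Ccl3 window held none of the 4 motifs. The Ccl12 window held an ETS core at -228 and a TATA match at -31, and the Cx3cl1 window a TATA match at -6. Over 32851 promoters of the same length, 3.90% held the NF-kB motif, 2.98% the interferon-stimulated response element, 7.69% the ETS core and 12.4% the TATA box.

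Between genes, levels were compared as RPKM, which divides CPM by the exon length in kilobases. Cx3cl1 stood far above the other 9 genes. Its mean RPKM ± SD was 151 ± 13 for the 6 young, 139 ± 10.8 for the 6 old control and 134 ± 14.9 for the 7 old anti-miR-mix libraries. The other 9 genes had mean levels of 0.557 RPKM (Ccl9) to 2.82 RPKM (Ccl12) in young and of 0.692 RPKM (Ccl9) to 4.05 RPKM (Ccl12) in old control libraries. In both groups no neighbour in that order was separated by more than the 2 SDs. In old anti-miR-mix libraries Ccl3 (3.12 ± 1.29 RPKM, SD, n = 7) and Ccl6 (3.08 ± 1.06 RPKM, SD, n = 7) stood beside Ccl12 (3.45 ± 1.93 RPKM, SD, n = 7), and the 9 genes again could not be separated from their neighbours.

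**Figure D1:**
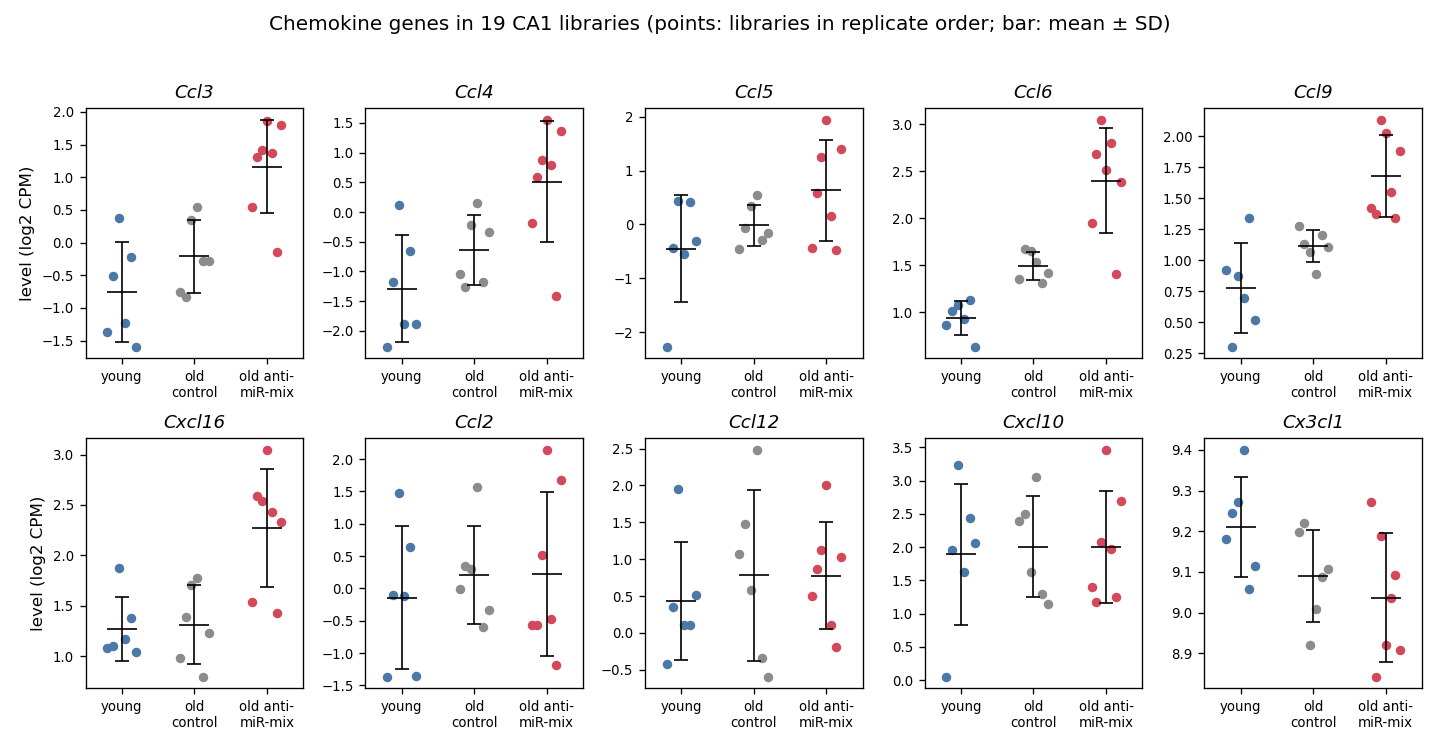
Level of each chemokine gene (vertical axis, log2 CPM with a prior count of 2, scaled per panel) in the young, the old control and the old anti-miR-mix group; points are libraries in replicate order, and bars are the mean and SD. The old anti-miR-mix libraries lie highest for Ccl3, Ccl6, Ccl9 and Cxcl16, with replicate 6 near the old controls, whereas Ccl2, Ccl12 and Cxcl10 spread widely in every group, and the Cx3cl1 panel spans only 8.84 to 9.40.

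The first comparison asked how the chemokine genes differed between old and young mice that had both received control oligonucleotides. No chemokine gene passed an adjusted p of 0.05 in edgeR's quasi-likelihood test (0 of 10), against 2.67% of all tested genes (514 of 19286) in either direction. At an unadjusted p under 0.05 there was 1 of the 10 genes (Ccl6) and 3483 of all genes, and DESeq2 called 0 of 10. The median log2 fold change of the 10 genes was 0.28, beside 0.01 for all tested genes, and 8 of the 10 were fitted higher in old control.

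Ccl6, a ligand of Ccr1 that macrophages make, had 49 to 71 reads in young libraries (median 59.5) and 77 to 94 reads in old control libraries (median 85). All 6 old control libraries lay above all 6 young libraries, which was the case for 1 of the 10 genes and for 2.54% of all tested genes in either direction. The log2 fold change was 0.56 (edgeR adjusted p = 0.15, SE 0.21), and with young and old control alone in the fit the adjusted p was 0.0115. The difference was positive in each of the 3 processing groups that hold both, at 0.49 to 0.64 on the log2 scale.

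Ccl9, a close relative of Ccl6 and another ligand of Ccr1, had 31 to 78 reads in young (median 55) and 54 to 89 reads in old control libraries (median 61.5). Its log2 fold change was 0.31 (edgeR adjusted p = 0.347, SE 0.17), and the groups overlapped. For Ccl3 it was 0.50 (edgeR adjusted p = 0.563, SE 0.40) and for Ccl4 0.54 (edgeR adjusted p = 0.622, SE 0.51). For Ccl3 and Ccl4, with as few as 4 reads in a young library, the error was nearly as large as the difference.

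The second comparison set old anti-miR-mix against old control libraries. Ccl3, Ccl6 and Cxcl16 rose (3 of 10) and none fell, against 0.669% of all tested genes called higher (129 of 19286, with 0 called lower). The 10 genes and all lists were chosen with earlier results of these data known. Their counts beside the share of all genes are therefore a description in every comparison, and not a test of the set. At an unadjusted p under 0.05 there were 6 of the 10 genes, with Ccl4, Ccl5 and Ccl9 in addition, and 2026 of all genes. The median log2 fold change of the 10 genes was 0.76, beside 0.00 for all tested genes. The increases of the 3 genes were between 2.01-fold (Ccl6) and 2.80-fold (Ccl3).

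Ccl3, also known as MIP-1 alpha, is a ligand of Ccr1. It had 14 to 45 reads in old control libraries (median 23.5) and 27 to 118 reads in old anti-miR-mix libraries (median 84), beside 9 to 41 reads in young libraries (median 15.5). Of the 7 anti-miR-mix libraries 5 lay above every old control, replicate 1 lay just below the highest old control and replicate 6, with 27 reads, lay among them. The log2 fold change was 1.49 (edgeR adjusted p = 0.0439, SE 0.34).

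Ccl6 had 83 to 320 reads in old anti-miR-mix libraries (median 177), against 77 to 94 in old control libraries. In this comparison 6 of the 7 anti-miR-mix libraries lay above every old control, and replicate 6 with 83 reads did not. The log2 fold change was 1.01 (edgeR adjusted p = 0.0159, SE 0.19), the smallest adjusted p of the 10 genes.

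Cxcl16 is a membrane-bound ligand of Cxcr6, a receptor found on T cells. It had 53 to 109 reads in old control libraries (median 72) and 84 to 271 reads in old anti-miR-mix libraries (median 165). Replicates 1 and 6, with 84 reads each, lay within the range of the old controls and the other 5 above it. The log2 fold change was 1.04 (edgeR adjusted p = 0.0402, SE 0.23). Zmynd15, whose exons overlap on the opposite strand, had 21 to 84 reads per library and a log2 fold change of 0.73 (adjusted p = 0.0549 in edgeR). Whether reads were counted by strand is not stated, so the reads of the pair cannot be told apart.

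Ccl4, or MIP-1 beta, an attractant of macrophages and T cells that lies next to Ccl3, did not pass the threshold. It had 10 to 34 reads in old control (median 18.5) and 10 to 95 reads in old anti-miR-mix libraries (median 56), where 5 libraries lay above every old control and replicate 6 lay below them all. The log2 fold change was 1.39 (edgeR adjusted p = 0.164, SE 0.42). Ccl9 had 70 to 168 reads in old anti-miR-mix libraries (median 96), and after scaling for depth all 7 lay above the 6 old controls, as was so for 1 of the 10 genes and for 0.498% of all tested genes. Its log2 fold change was 0.61 (edgeR adjusted p = 0.0875, SE 0.16), with an adjusted p of 0.0237 in DESeq2. Ccl5, also known as RANTES, a ligand of Ccr1 and Ccr3, had 24 to 45 reads in old control (median 25) and 20 to 125 reads in old anti-miR-mix libraries (median 40). Its log2 fold change was 0.92 (edgeR adjusted p = 0.397, SE 0.39), and 4 of 7 libraries lay above the old controls.

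These calls rested on few libraries. With processing group as a factor in the fit, 0 of the 10 genes passed (9 genes in all), and the log2 fold change was 1.05 for Ccl3 (adjusted p = 0.246 in edgeR), 0.72 for Ccl6 (adjusted p = 0.162 in edgeR) and 0.67 for Cxcl16 (adjusted p = 0.294 in edgeR). Within the 3 processing groups that hold both kinds of library the difference in mean log2 CPM was 0.14 to 1.33 for Ccl3, 0.04 to 0.94 for Ccl6 and 0.36 to 0.71 for Cxcl16, positive in each. For the uncalled Ccl4 and Ccl5 it took both signs, at -0.65 to 1.01 and -0.25 to 0.55. The 3 processing groups were 1, 2 and 4, with 1, 2 and 1 old anti-miR-mix libraries against 2 old control libraries in each. The lowest values of Ccl3 and Ccl6 came from group 4, where replicate 6 was the only old anti-miR-mix library. With old control replicates 5 and 6 counted as 1 library, Ccl6 passed (adjusted p = 0.0485 in edgeR) and Ccl3 (0.122) and Cxcl16 (0.117) did not. With the 2 old groups alone in the fit, 0 passed, at adjusted p values of 0.0551 (Ccl6), 0.0591 (Ccl3) and 0.0845 (Cxcl16).

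Single libraries also moved the calls. Ccl6 was lost without old control replicate 1 (adjusted p = 0.0533 in edgeR) or replicate 5 (adjusted p = 0.0569) and held without any other 1 library. Ccl3 and Cxcl16 were each lost without any 1 of the same 11 libraries, namely young replicates 2 and 5, old control replicates 1, 2, 5 and 6, and old anti-miR-mix replicates 2, 3, 4, 5 and 7, at adjusted p values of 0.0543 to 0.131 for Ccl3 and 0.0503 to 0.134 for Cxcl16. Without old anti-miR-mix replicate 6, Ccl4 (adjusted p = 0.0332 in edgeR) and Ccl9 (adjusted p = 0.0422) passed as well, giving 5 of 10. The fitted log2 fold change stayed between 1.36 and 1.69 for Ccl3, 0.88 and 1.13 for Ccl6, and 0.88 and 1.15 for Cxcl16 over the 19 fits that each left out 1 library.

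**Figure D2:**
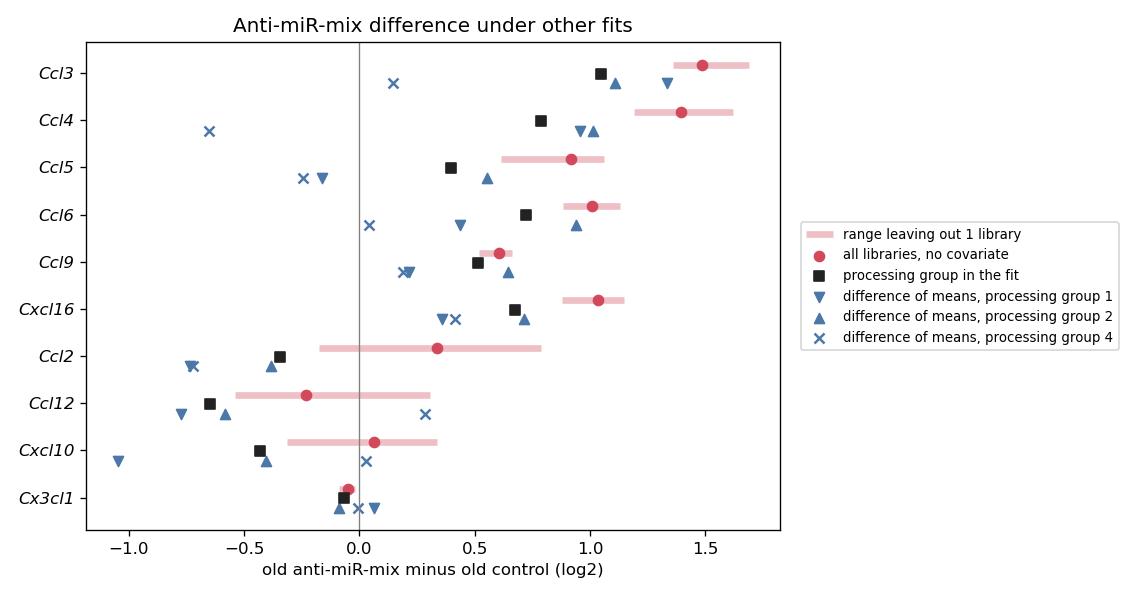
Difference between old anti-miR-mix and old control (horizontal axis, log2) for each gene in the fit over all libraries (circle, with the range over fits that left out 1 library), in the fit with processing group (square), and as the difference of means inside processing groups 1, 2 and 4 (blue symbols). Ccl3, Ccl6, Ccl9 and Cxcl16 lie to the right of 0 in every case, whereas the values of all other genes fall on both sides. Ccl4 lies to the left of 0 only inside processing group 4, and Ccl5 only inside groups 1 and 4. Groups 1 and 4 hold 1 old anti-miR-mix library each.

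For the remaining 4 genes the difference was smaller than its error (Ccl2, Ccl12, Cxcl10, Cx3cl1). Ccl2, or MCP-1, and Ccl12, or MCP-5, both attract monocytes through Ccr2. Ccl2 had 19 to 94 reads in old control (median 32.5) and 12 to 144 reads in old anti-miR-mix libraries (median 22), with a log2 fold change of 0.33 (edgeR adjusted p = 0.889, SE 0.55). Ccl12 had 18 to 179 reads in old control (median 57.5) and 26 to 130 reads in old anti-miR-mix libraries (median 49), with a log2 fold change of -0.23 (edgeR adjusted p = 0.911, SE 0.46). Cxcl10, a ligand of Cxcr3 that interferons induce, had 65 to 267 reads in old control (median 119) and 61 to 362 reads in old anti-miR-mix libraries (median 129), with a log2 fold change of 0.06 (edgeR adjusted p = 0.978, SE 0.42). The fitted sign of these 3 genes turned in other fits, and with processing group as a factor all 3 were fitted lower in old anti-miR-mix, at -0.34, -0.65 and -0.43 for Ccl2, Ccl12 and Cxcl10. Art3, whose exons overlap those of Cxcl10 on the opposite strand, had 80 to 142 reads per library. Its log2 fold change was 0.07 (adjusted p = 0.873 in edgeR), and the reads of Cxcl10 and Art3 cannot be told apart either.

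Cx3cl1, or fractalkine, was measured with 12721 to 26002 reads per library. Its log2 fold change was -0.05 (edgeR adjusted p = 0.867, SE 0.07) between old anti-miR-mix and old control. Its SD within groups was 0.11 to 0.16 log2 CPM, the smallest of the 10 genes in every group. The other genes had only 4 to 362 reads per library, where counting noise alone makes the SD larger.

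The third comparison set old anti-miR-mix against young, and thus joins age and treatment. Ccl3, Ccl4, Ccl6, Ccl9 and Cxcl16 rose (5 of 10) and none fell, against 4.57% of all tested genes called higher (881 of 19286). It shares its libraries with the other comparisons and is not independent of them. The median log2 fold change was 1.00, beside 0.00 for all tested genes, and 7 of the 10 genes had an unadjusted p under 0.05, with Ccl5 and Cx3cl1 in addition.

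Ccl6 was 2.97-fold higher (log2 fold change 1.57, edgeR adjusted p = 4.32e-05, SE 0.19), and all 7 anti-miR-mix libraries, at 83 to 320 reads, lay above the 6 young libraries at 49 to 71. The groups were also separate for Ccl9, so that 2 of the 10 genes did not overlap, beside 2.42% of all tested genes. Ccl9 was 1.89-fold higher (log2 fold change 0.92, edgeR adjusted p = 0.00103, SE 0.16). Ccl3 was 3.95-fold higher (log2 fold change 1.98, edgeR adjusted p = 0.0012, SE 0.35), with 6 of 7 libraries above every young one.

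Ccl4 had 4 to 34 reads in young libraries (median 9) and was 3.83-fold higher (log2 fold change 1.94, edgeR adjusted p = 0.0093, SE 0.44). Cxcl16 had 55 to 120 reads in young libraries (median 73.5) and was 2.11-fold higher (log2 fold change 1.08, edgeR adjusted p = 0.00586, SE 0.23). For both genes 5 of the 7 anti-miR-mix libraries lay above every young library. Cx3cl1 had a log2 fold change of -0.17 (edgeR adjusted p = 0.158, SE 0.07).

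The 5 calls of this comparison were firmer than those within old mice. All 5 held in each of the 19 fits without 1 library and with processing group as a factor, where the log2 fold changes were 1.76 (Ccl3), 1.68 (Ccl4), 1.42 (Ccl6), 0.92 (Ccl9) and 0.89 (Cxcl16) and the adjusted p values 3.14e-05 to 0.00854. Inside the 4 processing groups the difference in mean log2 CPM was positive in each for Ccl3, Ccl6, Ccl9 and Cxcl16. For Ccl4 it was positive in 3 of the 4, at -0.14 to 2.16. Ccl5, at 1.16 (edgeR adjusted p = 0.09, SE 0.40), passed in DESeq2 (adjusted p = 0.0435) and without old anti-miR-mix replicate 1 (adjusted p = 0.0454) or replicate 6 (adjusted p = 0.0439).

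**Figure D3:**
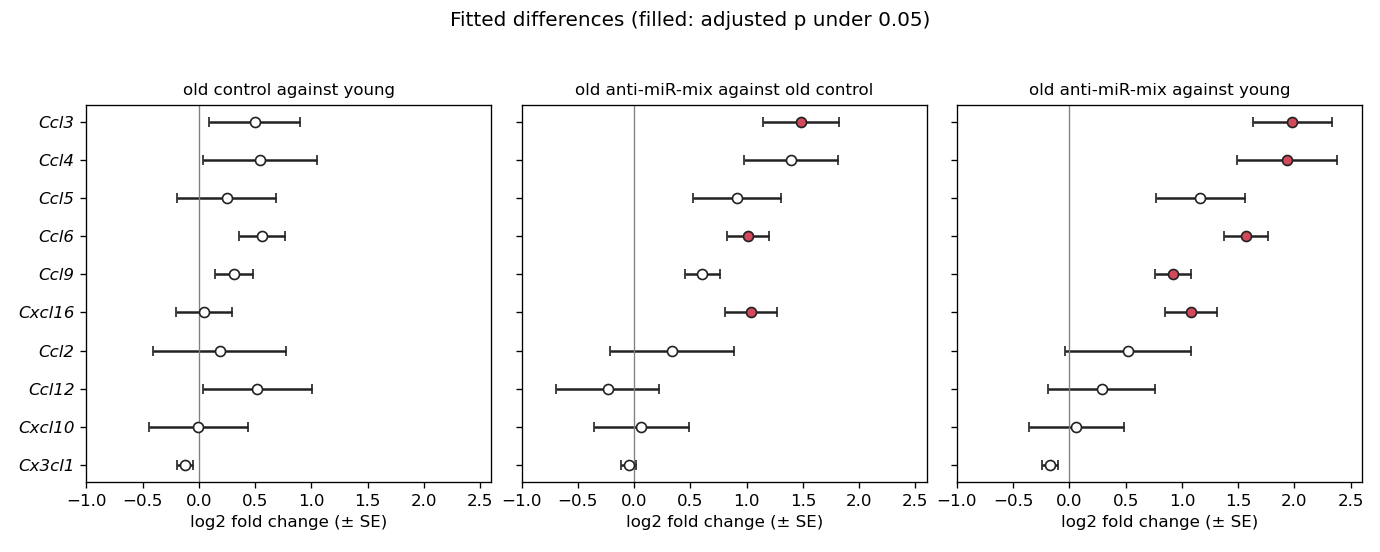
Fitted log2 fold change (horizontal axis) of each chemokine gene in the 3 comparisons, with its standard error; filled points have an adjusted p under 0.05. No point is filled for old control against young, 3 are filled for old anti-miR-mix against old control (Ccl3, Ccl6, Cxcl16) and 5 for old anti-miR-mix against young (Ccl3, Ccl4, Ccl6, Ccl9, Cxcl16).

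The genes differed in how they varied between animals of one group. Ccl2 was high in 1 or 2 libraries of each group, with 90 reads in young replicate 3, 94 in old control replicate 4, and 144 and 87 in old anti-miR-mix replicates 4 and 7, whereas no other library exceeded 53. Ccl12 peaked in the same young and old control libraries, with 126 and 179 reads, and in old anti-miR-mix replicate 4 with 130. Cxcl10 did likewise, with 312, 267 and 362 reads in these 3 libraries. The summed level of 8 markers of monocytes and neutrophils (Ly6c2, Plac8, Chil3, S100a8, S100a9, Ngp, Ly6g and Mpo) was 2.71 CPM in young replicate 3, 3.31 CPM in old control replicate 4, and 8.97 and 7.21 CPM in old anti-miR-mix replicates 4 and 7. In young and old control this marker sum was highest in those 2 libraries, and the other libraries of these groups lay at 0.432 to 1.21 CPM, while the other 5 old anti-miR-mix libraries lay at 1.19 to 2.78 CPM. Its part in the level of the chemokine genes was not tested, and Ly6g had 0 reads in all old control libraries.

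**Figure D4:**
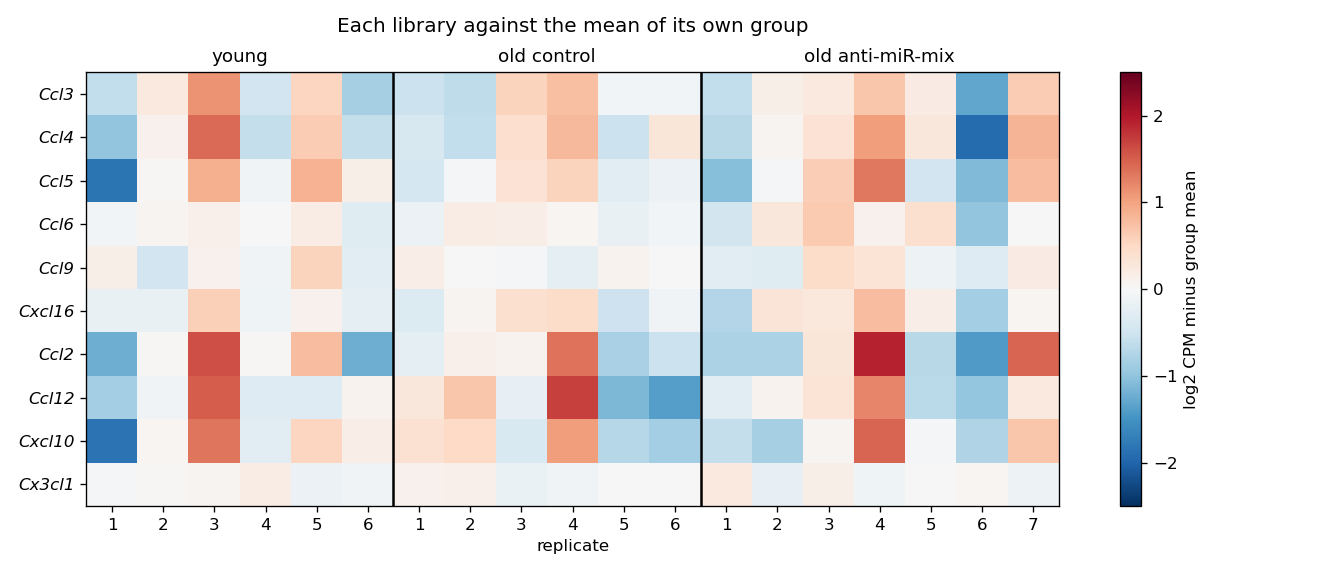
Each library (columns, by group and replicate) against the mean of its own group (colour, difference in log2 CPM) for the 10 chemokine genes. Young replicate 3, old control replicate 4 and old anti-miR-mix replicate 4 are above their group mean for Ccl2, Ccl12 and Cxcl10. Old anti-miR-mix replicate 6 is below its group mean for every gene except Cx3cl1, which stays close to 0 in all libraries.

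After the mean of each group had been subtracted, the log2 CPM of pairs of genes were correlated over the 19 libraries, with permutation within groups and adjustment over the 45 pairs. Of these, 19 pairs had an adjusted p under 0.05 by both Pearson's r and Spearman's rho, all positive, and 0 of the 9 pairs with Cx3cl1 and 0 pairs with Ccl9 were among them. The neighbours Ccl3 and Ccl4 were the most alike, with r = 0.959 and rho = 0.944 (n = 19, permutation p = 1e-05 for each, the smallest 100000 permutations can give, adjusted p = 0.0003 and 0.00045). This r was 0.936 without the 2 libraries farthest from the median and 0.931 after processing group was removed as well.

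Ccl2 and Cxcl10 followed each other, with r = 0.849 and rho = 0.825 (n = 19, permutation p = 2e-05 and 7e-05, adjusted p = 0.0003 and 0.000525), and r was 0.766 without the 2 farthest libraries and 0.817 after processing group. Ccl6 went with Cxcl16, at r = 0.747 and rho = 0.786 (n = 19, permutation p = 0.00224 and 0.00039, adjusted p = 0.00593 and 0.00135), with r = 0.718 and 0.527 under the same changes. Between Ccl6 and Cxcl10 no relation was detected, at r = 0.295 and rho = 0.297 (n = 19, permutation p = 0.237 and 0.244, adjusted p = 0.281 and 0.289), with r = 0.246 without the 2 farthest libraries and -0.017 after processing group. For Ccl6 and Ccl9 the test did not pass either, at r = 0.43 and rho = 0.279 (n = 19, permutation p = 0.122 and 0.305, adjusted p = 0.183 and 0.352), with r = 0.134 without the 2 farthest libraries but 0.547 after processing group. The pairs of Ccl9 with Ccl2, Ccl3, Ccl4 and Ccl5 did not pass, and their r after processing group was 0.628, 0.662, 0.612 and 0.611, which was not tested.

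Among the 15960 genes with a mean of at least 20 reads, those most like each chemokine gene within groups were of different kinds. All of these values are Pearson's r over 19 libraries that share tissue and depth, given as a description. Ccl2 was most like Acod1 (r = 0.954), which makes itaconate in activated macrophages, then Cd300lf (0.923) and Il1rn (0.917), which encodes a blocker of the interleukin-1 receptor. Cxcl10 was most like Ms4a4c (0.916), Oas2 (0.915) and Usp18 (0.911), and Ccl12 like Asap3 (0.914), Usp18 (0.905) and Oas2 (0.892). Oas2 and Usp18 are genes that interferons induce.

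Ccl3 was most like Ccl4, then Tgm1 (0.947) and Gm49339 (0.936), and Ccl4 like Ccl3, Tgm1 (0.927) and B430306N03Rik (0.917). Ccl5 was most like Il21r (0.946), Tlr2 (0.897) and Lgals3 (0.896). Ccl6 was most like C1qb (0.831) and C1qa (0.825), which encode subunits of the first complement component and are made by microglia, then Abca1 (0.821). Cxcl16 was most like Lcp1 (0.921), Apobec1 (0.907) and Fcgr1 (0.903), the last a receptor for immunoglobulin. Ccl9 had the weakest likeness, with Fignl1 (0.691), Uhrf1 (0.686) and Gtse1 (0.673). Cx3cl1 was most like Lypla2 (0.947), Mrtfa (0.943) and Ncdn (0.942).

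The receptors of these ligands are the other side of the signal. Of 18 chemokine receptor genes, 11 passed the filter and were tested. In old control against young 1 rose, in old anti-miR-mix against old control 0 passed, and in old anti-miR-mix against young 4 rose (3 with processing group as a factor, without Ccr2), with none falling. Over all tested genes the shares called were 2.67% in either direction, 0.669% higher and 4.57% higher in these comparisons. The median log2 fold change of the 11 receptors was 0.20, 0.39 and 0.68 in these comparisons, beside 0.01, 0.00 and 0.00 for all tested genes.

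Cx3cr1, the microglial receptor of Cx3cl1, had 1443 to 2005 reads in young (median 1712.5), 1805 to 2502 in old control (median 2154) and 1938 to 3095 in old anti-miR-mix libraries (median 2517). It rose with age by a log2 fold change of 0.35 (edgeR adjusted p = 0.0108, SE 0.07), and was 0.55 higher in old anti-miR-mix than in young (edgeR adjusted p = 4.32e-05, SE 0.07). Both calls held in all 19 fits without 1 library. Its ligand Cx3cl1 passed the test in none of the 3 comparisons.

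Ccr2, the receptor of Ccl2 and Ccl12 on monocytes, had 9 to 38 reads in young (median 13.5), 4 to 43 in old control (median 17) and 18 to 65 in old anti-miR-mix libraries (median 45). It rose against young by 1.43 (edgeR adjusted p = 0.0332, SE 0.40), a call that was lost in 9 of the 19 fits without 1 library (adjusted p up to 0.0812), namely without young replicates 1, 2, 4, 5 or 6 or old anti-miR-mix replicates 3, 4, 6 or 7. Cxcr4, the receptor of Cxcl12, rose against young by 0.87 (edgeR adjusted p = 0.0169, SE 0.22) and held in all 19 fits. Ccr7, the receptor of Ccl19 and Ccl21 on T cells and dendritic cells, rose against young by 2.30 (edgeR adjusted p = 0.0227, SE 0.60) from 2 to 10 reads in young (median 3.5) to 3 to 87 reads in old anti-miR-mix libraries (median 12). That call was lost without young replicate 1, 5 or 6 or old anti-miR-mix replicate 4 (adjusted p up to 0.0567), the last being the library with 87 reads.

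Ccr1, Cxcr6 and Cxcr3 did not pass. Ccr1, a receptor of Ccl3, Ccl6 and Ccl9, had 2 to 46 reads and log2 fold changes of -0.28, 0.99 and 0.70 in the 3 comparisons. Cxcr6, for Cxcl16, had 3 to 28 reads and reached 0.59 against young (adjusted p = 0.364 in edgeR), and Cxcr3, for Cxcl10, had 1 to 11 reads and reached 1.14 (adjusted p = 0.0688 in edgeR).

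**Figure D5:**
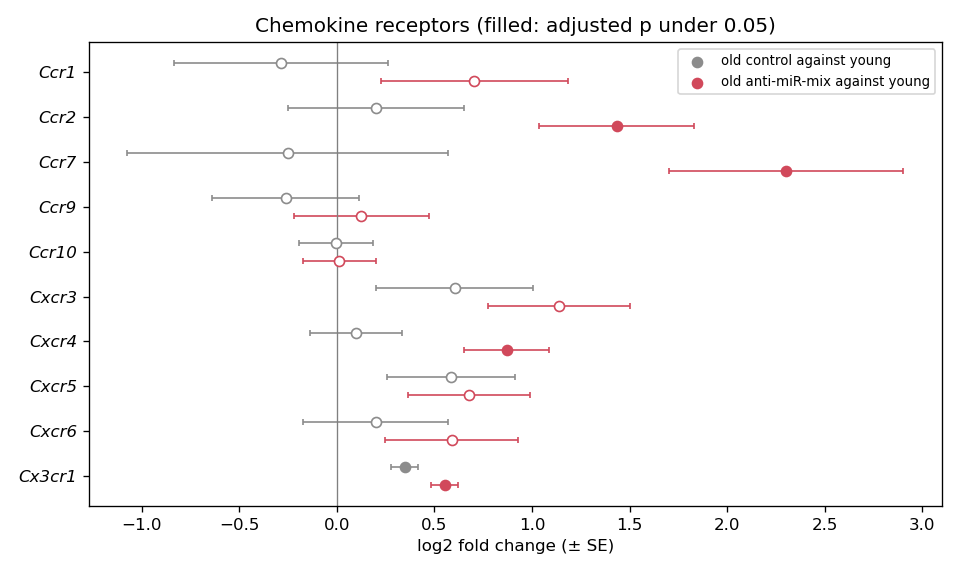
Fitted log2 fold change (horizontal axis, with standard error) of 10 tested chemokine receptor genes in old control against young (grey) and old anti-miR-mix against young (red); filled points have an adjusted p under 0.05. Cx3cr1 is filled in both, and Ccr2, Ccr7 and Cxcr4 are filled in red. The difference between the 2 comparisons is that of old anti-miR-mix against old control, which passed for 0 of the 10.

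Of 27 other chemokine ligand genes, 14 were tested, and 1 passed in any comparison. Cxcl5, which attracts neutrophils, had 33 to 168 reads in young (median 59.5), 45 to 187 in old control (median 71) and 86 to 283 in old anti-miR-mix libraries (median 195). It rose against young by 1.39 (edgeR adjusted p = 0.0175, SE 0.35) and held in all 19 fits without 1 library, with an adjusted p of 0.216 against old control. The median log2 fold change of the 14 ligands was 0.07, 0.05 and 0.15 in the order old control against young, old anti-miR-mix against old control, and old anti-miR-mix against young. Of the 5 atypical receptors, which bind chemokines without G protein signalling, and the 2 proteases that shed Cx3cl1 and Cxcl16 from the membrane (Adam10 and Adam17), none passed in any comparison, at medians of -0.08, 0.01 and 0.14 for the former and -0.02, 0.07 and 0.05 for the latter.

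Downstream of the receptors, 12 signalling genes were tested. In old control against young 1 rose (Pik3cg, 0.38, edgeR adjusted p = 0.0418, SE 0.10), in old anti-miR-mix against old control 1 rose (Pik3r5, 0.36, edgeR adjusted p = 0.0423, SE 0.08), and in old anti-miR-mix against young 6 rose. The shares of all tested genes called in these comparisons were 2.67% in either direction, 0.669% higher and 4.57% higher. The median log2 fold change of the 12 genes was 0.06, 0.11 and 0.11, beside 0.01, 0.00 and 0.00 for all tested genes. Pik3cg and Pik3r5 encode the catalytic and a regulatory subunit of PI3-kinase gamma, which G protein-coupled receptors activate in immune cells. The Pik3cg call was lost in 10 and the Pik3r5 call in 11 of the 19 fits without 1 library, with adjusted p values up to 0.1 and 0.131. With processing group as a factor Pik3r5 did not pass between the old groups (log2 fold change 0.31, edgeR adjusted p = 0.383), so that 0 of the 12 did. In old control against young 2 then passed, Pik3cg and Dock2 (edgeR adjusted p = 0.0483 and 0.0432), and against young the 6 calls stayed 6. Against young, Pik3cg (0.73), Pik3r5 (0.54), Dock2 (0.87), which drives migration of leukocytes, and Rgs10 (0.29) held in all 19 fits. Rgs1 (1.73), lost without young replicate 1, 4 or 6 or old anti-miR-mix replicate 4, and Gnai2 (0.15), lost without young replicate 1, 2 or 6 or old anti-miR-mix replicate 2, 4 or 7, did not. Of 12 genes of NF-kB and inflammatory cytokines, 11 were tested and 0 passed in each comparison, with medians of 0.04, 0.17 and 0.21.

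Of 12 genes of activated microglia 9 rose in old anti-miR-mix against old control (Ctsd by 0.66, Itgax by 1.92, Cst7 by 2.10), 11 rose against young and 0 passed in old control against young, beside 0.669% and 4.57% of all tested genes called higher in the first 2 of these. With processing group as a factor 1, 11 and 3 of the 12 passed, the 3 of old control against young including Itgax (edgeR adjusted p = 0.0479) and Clec7a (0.0343). Their summed level was 1816 to 2067 CPM in young, 2004 to 2347 CPM in old control and 2360 to 3107 CPM in old anti-miR-mix libraries. The lowest anti-miR-mix value was in replicate 6. That replicate was also the lowest of its group in every chemokine gene except Cxcl10 and Cx3cl1, called or not. Of 10 microglial identity genes 2 (Csf1r by 0.32 among them), 9 and 2 rose in these 3 comparisons, and their summed level was 313 to 383, 377 to 429 and 408 to 530 CPM in the young, old control and anti-miR-mix groups. That sum was lowest in anti-miR-mix replicates 7 (408 CPM) and 1 (415 CPM), with replicate 6 at 463 CPM. Among 8 genes of border macrophages 1 rose (Siglec1 by 1.64) in old anti-miR-mix against old control, 2 against young and 0 in old control against young. Of these 8 genes, 7, 4 and 1 were fitted higher in these comparisons, at median log2 fold changes of 0.32, -0.10 and -0.26. Mrc1 (-0.38), Cd163 (-0.62), Lyve1 (-0.32) and Cbr2 (-0.25) were fitted lower in old anti-miR-mix than in young. With processing group as a factor 0 of the 10 identity genes and 0 of the 8 border genes (Siglec1 at edgeR adjusted p = 0.132) passed between the old groups. The part of these cells in the chemokine levels was not tested.

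None of the genes of the remaining 13 marker lists passed between old anti-miR-mix and old control, out of 16 lists in all. Over all tested genes 2.67% were called in old control against young, in either direction. For old anti-miR-mix against young 4.57% were called higher, and 315 of 19286 genes were called lower. Against young, 2 of 4 tested markers of monocytes and neutrophils (S100a8 by 2.26 and S100a9 by 2.84) and 0 of 5 tested markers of T and NK cells rose, and the summed level of T and NK markers was 0.539 to 1.98 CPM in young, 0.927 to 2.26 in old control and 1.42 to 4.12 CPM in old anti-miR-mix libraries. Of 6 astrocyte markers 1 rose in old control against young (S100b by 0.30) and 3 in old anti-miR-mix against young (Gfap by 0.77, S100b by 0.42 and Slc1a3 by 0.20). Igkc, an immunoglobulin gene, was the 1 of 3 tested markers of B and plasma cells that rose in these comparisons, by 3.35 and 3.74. Among oligodendrocyte markers Mog, Cnp and Mag fell in old control against young, by 0.55, 0.49 and 0.43 on the log2 scale. With processing group as a factor Mag did not pass (edgeR adjusted p = 0.066). None passed in old anti-miR-mix against young, where Mog did with that factor (-0.32, edgeR adjusted p = 0.0445). In old anti-miR-mix against young 1 of 6 markers of CA1 pyramidal neurons (Wfs1) and 1 of 6 pan-neuronal markers (Stmn2) fell, by 0.36 and 0.15 on the log2 scale. Of the 6 CA1 markers 3 were fitted higher (median log2 fold change 0.04), and of the 6 pan-neuronal markers 0 were (median -0.08). The part of these cells in the chemokine levels was not tested either. Of 10 interferon response genes 0 passed in each comparison, with medians of -0.27, 0.64 and 0.33.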

How the data were processed

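CA1 RNA was sequenced in 19 libraries. Groups and ages were taken from the labels. The authors deposited raw counts of reads per Ensembl gene, made, by the labels and the study's methods, from polyadenylated RNA (TruSeq, single-end reads) aligned to mm10 with STAR 2.5.2b and counted with featureCounts (Subread 1.5.1) after FastQC 0.11.5. Strand, multi-mapping and annotation options are not given in the sources used here, so close paralogs such as Ccl6 and Ccl9 could exchange reads. The authors also deposited log2 values for 18761 genes, which equal log2(CPM + 1) minus a slope per gene times a whole number from 1 to 4 per library, to within 3.4e-08; that number is the processing group. The labels name no batch of that kind, and 0 columns were left unassigned.

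Counts were scaled by TMM and tested with edgeR 4.0.16 (quasi-likelihood, R 4.3.3) over all 19 libraries and 19286 genes, with Benjamini-Hochberg adjustment over all of them. Log2 CPM had a prior count of 2. The labels number the libraries within each group, and each library was taken as a separate mouse. DESeq2 1.42.0, limma 3.58.1 and other settings were alternatives. The fit was tested on simulated data. Coordinates are GENCODE M21 and sequences RefSeq. Genes named besides the 10 were those past the threshold in fixed lists, up to 6 per list by adjusted p, the receptors of the 10, and for each of the 10 the 3 genes most correlated within groups. Members of lists were also named with their values where they did not pass. The 10 genes and all lists were chosen with earlier results of these data known, and the motifs after the promoter sequences had been seen. Results for 3 genes of these lists are not reported here.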

Additional observations from a re-analysis of the deposited data

Results flagged for a closer look

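Of the 30 combinations of a chemokine gene and a group, 1 held a library far from the others of its group by Dixon's test at the 95% level, where chance alone gives about 1 in 20. Ccl5 was at -2.27 log2 CPM (4 reads) in young replicate 1, whereas the other 5 young libraries lay at -0.54 to 0.44. The gap was 0.638 of the group's range, beside a critical value of 0.625 for 6 libraries.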

How the results depend on the processing

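The 5 chemokine genes called between old anti-miR-mix and young stayed called in every alternative run (5 or 6 genes, of 890 to 1520 genes in all), while the calls between the old groups were fragile. There, 0 of the 10 genes passed with processing group as a factor (9 genes in all), with that factor and old control replicates 5 and 6 as 1 library (4 genes), or with the old groups alone in the fit (55 genes). A single gene passed with processing group as a linear term or with old control replicates 5 and 6 as 1 library (36 genes), 4 passed with DESeq2 (267 genes), and limma voom with quality weights called 225 genes. Leaving out 1 library gave 0 to 5 chemokine genes and 24 to 247 genes, with 0 chemokine genes without old control replicate 1 or 5. Against young, leaving out 1 library gave 5 to 6 chemokine genes for old anti-miR-mix, and 0 in every such fit for old control, where 214 to 746 genes passed. Between old control and young, 1 chemokine gene (Ccl6) passed with only those groups in the fit (772 genes), and the number of all genes was 914 with DESeq2, 323 with no low-count filter, 302 with old control replicates 5 and 6 as 1 library, 212 with that and processing group, and 1118 with limma voom.

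Same-numbered libraries of different groups deviated little alike (correlations of deviations of -0.17 to 0.214). Weak correlations cannot exclude that samples were paired. A replicate block gave 249 genes and 3 chemokine genes between the old groups, 0 chemokine genes for old control against young and 5 for old anti-miR-mix against young, and turned the sign of uncalled values for Ccl2 (-0.11) and Cxcl10 (-0.15) between the old groups and Cxcl10 (-0.16) against young.

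The other log2 fold changes that turned sign belonged to genes that were not called. Between the old groups, processing group as a factor gave -0.34 for Ccl2 and -0.43 for Cxcl10, and with old control replicates 5 and 6 also as 1 library -0.41 and -0.59; that merge alone gave -0.070 for Cxcl10, and limma voom gave 0.26 for Ccl12. For old control against young, Cxcl10 was 0.29 with processing group, 0.055 with limma on the deposited values, 0.13 with the merge and 0.49 with merge and processing group, and limma voom gave -0.083 for Ccl12 and -0.13 for Cxcl16. For old anti-miR-mix against young, Cxcl10 was -0.15, -0.095 and -0.077 with processing group, with merge and processing group, and with limma voom. Leaving out 1 library moved old control against young between -0.26 and 0.69 (Ccl2), -0.018 and 1.04 (Ccl12), -0.28 and 0.36 (Cxcl10) and -0.066 and 0.20 (Cxcl16), the old groups between -0.18 and 0.79 (Ccl2), -0.54 and 0.30 (Ccl12) and -0.31 and 0.34 (Cxcl10), and old anti-miR-mix against young between -0.020 and 0.81 (Ccl12) and -0.32 and 0.42 (Cxcl10). The cause was not tested. A prior count of 0.5 in place of 2 moved every mean level by less than its SD.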
